A study of Schizosaccharomyces pombe with 6 samples.

Results

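The regions described here are the outermost non-ribosomal sequences of chromosome III of *Schizosaccharomyces pombe*, next to the ribosomal RNA gene arrays (rDNA) at its 2 ends. The left flank was taken as the AseI restriction fragments with a midpoint between bases 24000 and 100000, and the right flank as those with a midpoint between bases 2352883 and 2440000. The flanks held 124 fragments, 58 on the left and 66 on the right, of 9464 nuclear fragments with a place in the tables. A further 19 fragments lay in the rDNA and were left out, and 2 fragments of the left flank, of 13 and 25 bp, were in no pair. The contacts described are pairs of non-adjacent fragments with at least 1 end in a flank and no end in the rDNA, and pairs annotated with a retrotransposon long terminal repeat (LTR) at both ends were left out. There were 6784 such pairs over the 3 phases.

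In fission yeast the rDNA repeats lie in tandem at both ends of chromosome III and are the site of the nucleolus, where ribosomal RNA is transcribed. Chromosomes I and II end instead in subtelomeric sequence, which carries genes for telomere-linked helicases such as tlh1 and is held near the nuclear envelope with the telomeres. The flanks of chromosome III are the non-ribosomal sequence nearest to the nucleolus on that chromosome. Sequence that occurs in more than 1 place in the genome is common near chromosome ends, and a read from such sequence fits each copy equally well.

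Contacts were captured by Genome Conformation Capture (GCC), in which cross-linked chromatin is cut with AseI, ligated and sequenced, so that a read pair joining 2 fragments counts as 1 contact. The G1 phase cells were the cdc10-129 strain MY291, the G2 phase cells the cdc25-22 strain MY284 and the M phase cells the nuc2-663 strain MY286. All 3 strains are temperature-sensitive mutants and were held at 36°C for 4 h to arrest them, and the study's methods give them the same h- mating type and lue1 marker. Each of the 3 tables pools 2 biological replicates of a phase, so no spread between replicates can be given, and phase, strain and library preparation cannot be told apart. Where 3 values stand together below, they belong to G1, G2 and M phase in that order. Intervals are at the 95% level, Wilson for shares and exact Poisson for counts, and cover counting error only.

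The tables of G1, G2 and M phase held 2056860, 2196581 and 2119634 counts outside mitochondrial and plasmid sequence. Flank pairs took 25128, 28920 and 24235 counts, or 1.22%, 1.32% and 1.14% of these. Most pairs were seen once: 90.6%, 87.1% and 92.2% of the pairs found had a single count. In contrast, 79.2%, 78.1% and 82.0% of the flank counts lay in just 10 pairs.

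Reads from sequence that the flanks have in common fit either flank, so such sequence is shown first. AseI cuts at ATTAAT, and the following stretches, read from the NCBI RefSeq genome (build ASM294v3) and written 5′ to 3′ with the AseI sites in capitals, show the same sites in both flanks. The first pair is a 16 bp fragment with 10 bases on each side, at III:27085-27124 on the plus strand and III:2436990-2437029 on the minus strand.

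left flank, 16 bp fragment: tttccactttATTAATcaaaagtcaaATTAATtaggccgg
right flank, 16 bp fragment: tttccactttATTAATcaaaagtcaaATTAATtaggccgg

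The second pair is the junction of each flank with the rDNA, at III:24651-24710 on the plus strand and III:2439404-2439463 on the minus strand, with rDNA to the left of the site.

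left junction: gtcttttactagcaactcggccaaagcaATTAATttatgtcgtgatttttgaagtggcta
right junction: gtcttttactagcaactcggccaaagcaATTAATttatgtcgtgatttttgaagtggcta

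The 2 flanks are inverted copies of each other next to the rDNA. Aligned with BLAST+, bases 24683 to 33054 of the left flank matched bases 2431086 to 2439431 of the right flank with 97.7% identity over 8384 aligned bp. The next stretch inward, bases 33009 to 36088, matched bases 2427752 to 2430817 with 92.7% identity over 3097 bp. Farther in, bases 42221 to 43064, in the meiotically upregulated gene meu3, matched bases 2418712 to 2419554 at meu19 with 98.9% identity over 844 bp. A last copy of 338 bp, at bases 38367 to 38704 and 2427363 to 2427700, had 93.2% identity. In all, 10 fragments of the left flank and 11 of the right flank shared a stretch of at least 50 bp with the other flank. Pairs that involve these fragments held 91.0%, 91.7% and 93.7% of the flank counts.

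Because of these copies, pairs were divided by sequence. Pairs share repeated sequence where some 50 bp of 1 fragment, or of the fragments beside it, recur in the fragment at the other end. Repeat-free fragments hold no 50 bp that recur anywhere else in the nuclear genome. Of the 124 flank fragments 99 were repeat-free, 45 on the left and 54 on the right, which is 79.8% beside 92.7% of the other nuclear fragments. Only 64 of the 6784 pairs shared repeated sequence, yet they held 86.6%, 87.3% and 89.1% of the flank counts. The 6717 pairs that did not share it held 3361, 3666 and 2639 counts, and the 191 pairs of 2 repeat-free fragments held 120, 254 and 112. A further 3 pairs had an end that could not be matched to the reference.

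**Figure D1:**
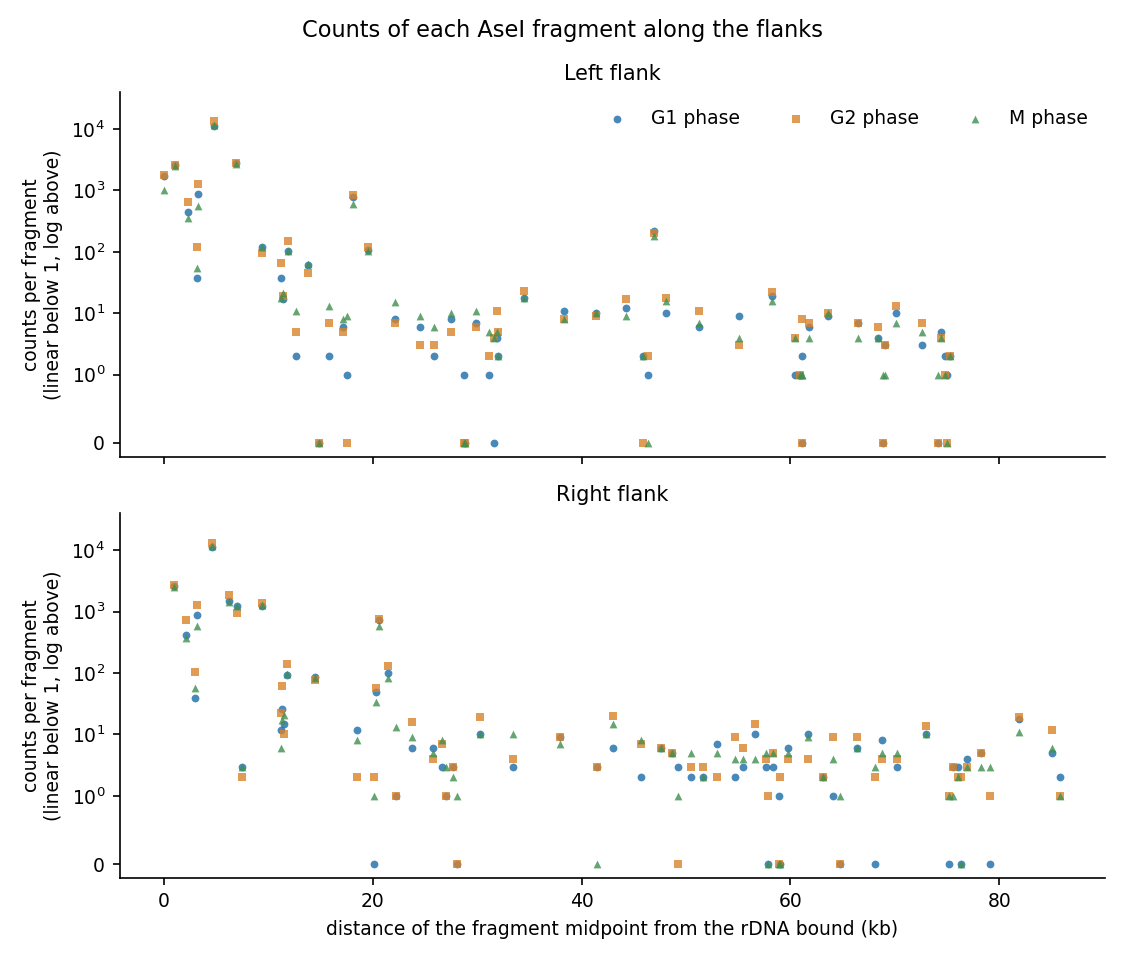
Counts of each flank fragment (log axis) against its distance from the bound of the rDNA in kb, for the left and the right flank in G1, G2 and M phase. The fragments with the most counts lie next to the rDNA in both flanks, where the SPCP20C8.01c and SPCC569.01c fragments reach 11336 and 11245 counts in G1 phase. Scaled to 1000000 counts of the table (CPM), these are 5511 and 5467 CPM.

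The fragments of the flanks ranged from 0 to 13458 counts in a phase. The fragment that carries SPCP20C8.01c, III:27401-30080 on the left, had 11336, 13458 and 11799 counts, the most of any flank fragment. Its mirror on the right, the SPCC569.01c fragment III:2434032-2436711, had 11245, 13293 and 11650. Both genes are annotated as encoding uncharacterized proteins. The outermost non-ribosomal fragments, III:24681-25395 and III:2438717-2439431, had 2546, 2628 and 2455 counts on the left and 2648, 2748 and 2498 on the right. The SPCP20C8.02c fragment III:30081-31616 had 2749, 2798 and 2664 counts, and the SPCC569.02c fragments III:2433485-2434031 and III:2432521-2433484 had 1509, 1851 and 1410 and 1219, 934 and 1257. The 288 bp fragment III:27113-27400 on the left had 875, 1262 and 549 counts, and SPCC569.03 on the right 1220, 1385 and 1294. The first 2 of these mirrored sets had nearly the same counts left and right, while the SPCP20C8.02c sequence is cut into 2 fragments on the right.

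The typical flank fragment was far lower. Over all 124 fragments the median was 6 counts in each phase, beside 4, 4 and 3 counts over the 9321 other nuclear fragments outside the rDNA. Over the 99 repeat-free fragments the median was 3, 4 and 5 counts, beside 3, 3 and 2. The 25 fragments with repeated sequence had medians of 739, 772 and 549 counts, beside 516.5, 577 and 366 over the 680 such fragments elsewhere.

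With pairs that share repeated sequence left out, the order within the flanks changed. After the fragment at the rDNA edge, treated next, the 1701 bp fragments III:25396-27096 and III:2437016-2438716 had the most counts, 277, 383 and 225 on the left and 259, 409 and 229 on the right. The 288 bp fragments beside them, III:27113-27400 and III:2436712-2436999, had 173, 332 and 128 and 171, 315 and 150. All 4 were highest in G2 phase and lowest in M phase. SPCP20C8.01c kept 153, 125 and 165 counts and SPCC569.01c 163, 144 and 167. III:2438717-2439431, SPCP20C8.03 and SPCC569.03 had between 44 and 60 in each phase.

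The fragment at the left bound needs separate mention. III:23380-24680 belongs to the left flank by its midpoint, base 24030, although it is annotated as rRNA, and all 1175 of its repeated 50 bp stretches lie in the rDNA. The next fragment outward has its midpoint at base 22816.5. On the right the innermost excluded fragment, its mirror III:2439432-2440745, has its midpoint at base 2440088.5 and the outermost included one at base 2439074. The rDNA edge fragment was in 2968 of the 6784 pairs, or 43.8%, and had 1697, 1799 and 1012 counts. A read from any rDNA copy could be placed on it, so its contacts are not separable from those of the rDNA, and the main values are given with and without it.

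Pairs that reached 3 counts in a phase, the cut-off of the study, are called interactions. Of the 6784 pairs, 87, 112 and 64 were interactions. These are 1.28%, 1.65% and 0.943% of the flank pairs, beside a background of 3.71%, 4.69% and 3.44% over all nuclear pairs chosen in the same way. Among pairs that do not share repeated sequence, 48, 73 and 24 were interactions. Their shares were 0.715% (0.539 to 0.946), 1.09% (0.865 to 1.36) and 0.357% (0.240 to 0.531), beside 0.615%, 1.51% and 0.463%. In G1 and M phase the intervals include the background, and in G2 phase the flank share lay below it. The rDNA edge fragment accounted for 28, 34 and 9 interactions, and without it there were 59, 78 and 55.

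Over the 3 phases 155 pairs were interactions in at least 1 phase, and 49 of them, or 31.6% (24.8 to 39.3), were interactions in all 3, beside a background of 61.5%. Without the rDNA edge fragment 47 of 88 were, or 53.4% (43.1 to 63.5), an interval that includes this background. Of the 44 flank interactions that share repeated sequence, 36 occurred in all 3 phases. Over all nuclear pairs chosen in the same way, 3020 of 4912 interactions did. Only 270 of these were among the 1635 that do not share repeated sequence, so most shared it there too. Of the 111 flank interactions that do not share it, 13 occurred in all 3 phases, or 11.7% (6.97 to 19.0), beside 16.5%. In G1 phase alone 27 occurred, in G2 phase alone 52 and in M phase alone 11. Most of those in a single phase involved the rDNA edge fragment. Without it, 12 of 45 occurred in all 3 phases, 1 in G1 phase alone, 20 in G2 phase alone and 4 in M phase alone. No share over all nuclear pairs was worked out for interactions in a single phase, so these numbers are not called particular to the flanks.

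Contacts between the flanks held most of the counts, and nearly all of these joined copies of the same sequence. Between-flank pairs took 16157, 18696 and 15788 counts, which is 64.3%, 64.6% and 65.1% of the flank counts. The SPCP20C8.01c and SPCC569.01c fragments were joined by 8205, 9613 and 8572 counts, and this pair alone held 32.7%, 33.2% and 35.4% of all flank counts. The fragments III:24681-25395 and III:2438717-2439431 were joined by 2361, 2321 and 2288 counts. The SPCP20C8.02c fragment was joined to the SPCC569.02c fragments III:2433485-2434031 and III:2432521-2433484 by 1388, 1703 and 1297 and by 1201, 920 and 1234 counts. At the inner copy, meu3 (III:41609-42484) and meu19 (III:2419290-2419553) were joined by 657, 671 and 501 counts. Each of these pairs was of the same order in every phase.

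The position of the partners followed the inverted copies. When each left fragment was set at its mirrored place in the right flank, 92.0%, 92.3% and 92.8% of the between-flank counts lay within 2 kb of it, the rDNA edge fragment aside. Within 5 kb lay 16056 of 16060, 18523 of 18528 and 15662 of 15708 counts, and all 35, 35 and 37 interactions. The tables hold no mark for ends placed on repeated sequence, so a contact between 2 flanks, a contact within a flank and a read of one fragment placed on its copy cannot be told apart for these pairs.

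**Figure D2:**
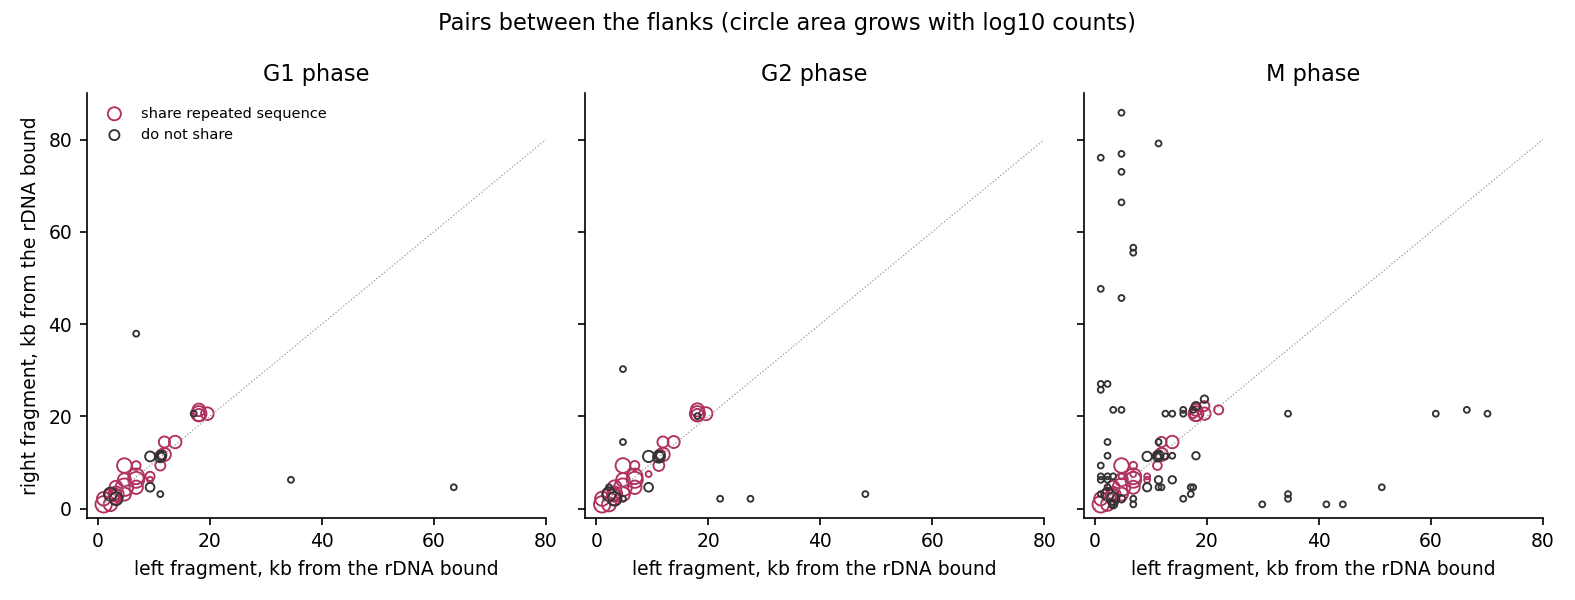
Between-flank pairs in each phase, without the rDNA edge fragment. The distance of the left fragment from the rDNA (kb, x axis) is set against that of the right fragment (kb, y axis). Point size is by counts and colour by whether the pair shares repeated sequence. The points lie along the diagonal of mirrored positions, and in M phase 46 counts more than 5 kb away from it appear, beside 4 in G1 phase and 5 in G2 phase.

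Among pairs that do not share repeated sequence, the counts within a flank came mainly from 1 junction that is present in both flanks. A fragment of 1701 bp (III:25396-27096 on the left and III:2437016-2438716 on the right) is separated from a fragment of 288 bp (III:27113-27400 and III:2436712-2436999) by the 16 bp fragment shown above. On the left they were joined by 80, 152 and 49 counts, and on the right by 67, 155 and 59. The left 1701 bp fragment was joined to the right 288 bp fragment by 86, 142 and 52 counts, and the right 1701 bp fragment to the left 288 bp fragment by 70, 161 and 47. The 4 placements were thus alike within a phase, with overlapping intervals. The left pair had 38.9 (30.8 to 48.4), 69.2 (58.6 to 81.1) and 23.1 (17.1 to 30.6) CPM, and the intervals of the 3 phases do not overlap. On the right the intervals of G1 and M phase overlap. The copy a read came from cannot be told from these counts.

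**Figure D3:**
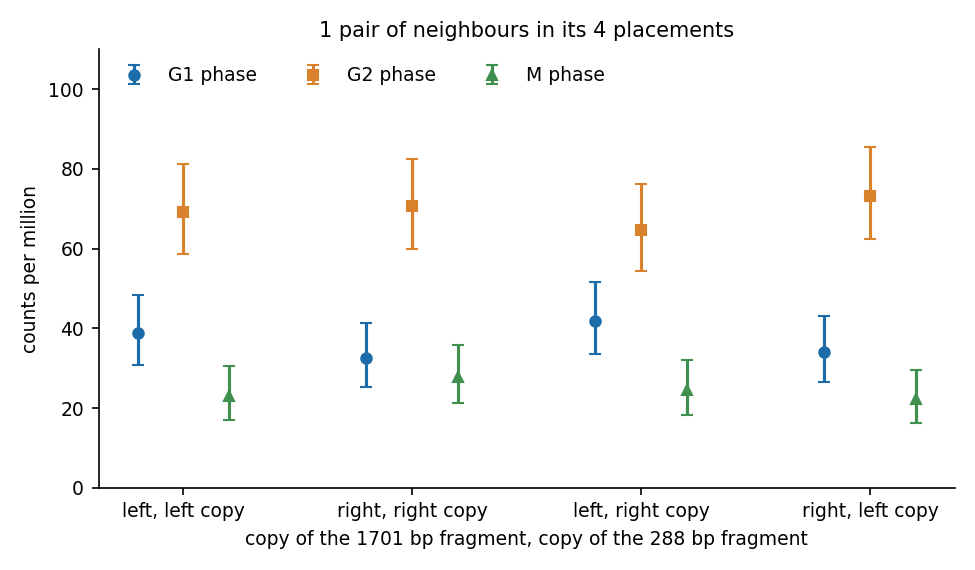
CPM, with exact Poisson 95% intervals, of the 4 placements of the junction between the 1701 bp and 288 bp fragments (left with left, right with right, and the 2 crossed pairs) in G1, G2 and M phase. In every placement G2 phase is highest and M phase lowest, from 64.6 to 73.3 and from 22.2 to 27.8 CPM.

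Apart from this junction, few fragments of a flank were joined to others of the same flank. Left-flank pairs took 92, 164 and 102 counts and right-flank pairs 446, 590 and 484. On the right, the SPCC569.03 fragment III:2428831-2432497 and the SPCC569.01c fragment were joined by 365, 410 and 379 counts, a pair that shares repeated sequence. On the left, the SPCP20C8.01c and SPCP20C8.03 (III:31617-35035) fragments were joined by 3, 3 and 2 counts. In M phase alone, the rDNA edge fragment was joined to III:25396-27096 (0, 0 and 4 counts) and SPCP20C8.01c to III:42485-44637 (0, 0 and 3 counts), which carries meu3 and the nickel transporter gene nic1. On the right, III:2428575-2428797 and SPCC569.03 were joined by 3, 11 and 4 counts. Both flanks were high for their length without the edge fragment: the left flank had 86, 158 and 88 counts inside it beside a median of 1, 2 and 1 over 160 other windows of 76 kb, and the right flank 446, 590 and 484 beside 1, 2 and 1 over 139 windows. Most of these counts lay in 1 pair per flank. On the left it was the junction, with 80, 152 and 49 counts, and on the right the SPCC569.03 and SPCC569.01c pair. Between 90.6% and 91.9% of the other windows were below the flanks, so windows with more counts than the flanks also exist.

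Only 2 pairs with an end in a flank were called at least 4-fold higher in a phase than in another, counts under 3 being set to 3. Both were higher in G2 phase than in M phase, 2 of the 127 pairs tested in that direction or 1.57%, beside a background of 9.38%. Among pairs that do not share repeated sequence they were 2 of 84, beside 5.99%, and among repeat-free pairs 2 of 24, beside 1.34%. No flank pair passed in the other 5 directions, where the background was 0.126% (G1 over G2), 2.19% (G1 over M), 1.52% (G2 over G1), 0.026% (M over G1) and 0.148% (M over G2). Fragment III:35036-35276 was joined to III:2428575-2428797 by 9, 18 and 2 counts, a ratio of 5.79, and to III:2428798-2428830 by 12, 22 and 4 counts, a ratio of 5.31. These fragments are repeat-free by 50 bp stretches. The first right-hand fragment is a close copy of the left one, as the start of the left fragment (III:35034-35087, plus strand) and its counterpart (III:2428748-2428801, minus strand) show, with the differing bases in capitals. The second lies next to that copy, toward the rDNA.

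left copy: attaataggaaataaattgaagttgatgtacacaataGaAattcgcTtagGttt
right copy: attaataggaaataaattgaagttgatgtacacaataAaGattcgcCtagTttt

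The copies differ at 4 of 54 bases and are identical over the first 37. When pairs with a common 25 bp stretch were left out, no 4-fold call remained. All 5 repeat-free interactions between the flanks shared such a stretch, directly or through a neighbouring fragment.

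Contacts away from neighbours and from mirrored positions were more frequent in M phase. Only pairs that do not share repeated sequence were used, with the rDNA edge fragment left out. Counts between the flanks more than 5 kb off the mirrored position numbered 4 in G1, 5 in G2 and 46 in M phase. Counts within a flank over 5 kb or more numbered 4, 5 and 38. Together these were 3.89 (1.68 to 7.66), 4.55 (2.18 to 8.37) and 39.6 (31.6 to 49.1) CPM, and the interval of M phase lies above those of the other phases. The 84 counts of M phase were spread over 79 pairs, with at most 3 counts in a pair, so the difference lies in many single counts. By flank, the counts over 5 kb or more were 2, 1 and 21 on the left, above 83.1%, 70.6% and 96.25% of the other windows of that length, and 2, 4 and 17 on the right, above 78.4%, 89.2% and 94.96%. The same 4, 5 and 46 and 4, 5 and 38 counts were found when a common stretch of 25 bp was used to leave out pairs.

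The M phase counts involved 61 fragments. SPCP20C8.01c had 15 of the 84, III:24681-25395 had 10 and SPCC569.01c had 8, and the repeat-free fragment III:55989-60995, which carries the catalase gene ctt1, had 7. At least 1 end was copied between the flanks in 81 of the 84 counts, so for these the flank of origin cannot be told apart. Contacts of the flanks with the rest of chromosome III did not show a rise of this size, again without the rDNA edge fragment. They numbered 274, 281 and 299, or 133 (118 to 150), 128 (113 to 144) and 141 (126 to 158) CPM. With that fragment they numbered 594, 604 and 503. Other pairs 5 to 100 kb apart on the same chromosome had 463 (434 to 494), 623 (590 to 657) and 654 (620 to 690) CPM. These lay in 534, 482 and 1116 pairs, so a spread over more pairs in M phase was not particular to the flanks. Contacts between the left and right 100 kb ends had 63.2 (52.8 to 75.0), 78.3 (67.0 to 90.9) and 80.7 (69.0 to 93.7) CPM on chromosome I and 51.5, 49.6 and 46.2 on chromosome II. They were spread over 69, 54 and 138 pairs on chromosome I and 45, 33 and 54 on chromosome II. The remaining nuclear pairs without shared repeats held 39158, 40931 and 29700 counts, in 34003, 30407 and 26521 pairs. Strain and library preparation cannot be told apart from phase for these M phase counts, so their part was not tested.

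By class, the interactions in G1, G2 and M phase numbered 36, 36 and 39 between the flanks, 2, 2 and 3 within the left flank, 4, 4 and 4 within the right flank, 10, 16 and 3 with the rest of chromosome III, 33, 51 and 14 with the arms of chromosomes I and II, and 2, 3 and 1 with their 50 kb ends. The number of between-flank interactions was thus similar in each phase, and those with the arms were fewest in M phase. Arms of chromosomes I and II here means all sequence outside their 50 kb ends, so the centromeres and the mating-type region are included. Between-flank interactions made up 41.4% (31.6 to 51.9), 32.1% (24.2 to 41.3) and 60.9% (48.7 to 71.9) of the total. The share with the arms of chromosomes I and II was 37.9%, 45.5% and 21.9%. Two-sided Fisher's exact tests on these numbers gave an adjusted p of 0.00467 for the between-flank share and 0.0179 for the share with the arms in M against G2 phase, the lowest of 18 comparisons, and of 0.128 for the between-flank share in M against G1 phase. The tests take pairs as independent, although 33 of the 43 between-flank interactions occurred in all 3 phases, so the p-values describe the 3 pooled tables and no difference between phases was called from them. Weighted by counts, the between-flank share in M phase exceeded that in G2 phase by 0.498 percentage points.

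Without the rDNA edge fragment the directions stayed and the adjusted p rose. The between-flank shares were then 59.3% (46.6 to 70.9), 44.9% (34.3 to 55.9) and 67.3% (54.1 to 78.2), and the arms held 23.7%, 37.2% and 18.2%, with an adjusted p of 0.187 for both in Fisher's exact test. Over pairs that do not share repeated sequence, the between-flank share was 12.3% of 73 interactions in G2 and 41.7% of 24 in M phase, and the share with the arms 57.5% and 25% (Fisher's exact test, adjusted p = 0.0801 for both). The between-flank interactions themselves numbered 9 and 10, so the shares differ mainly through the totals. These tests too take pairs of 1 pooled table per phase as independent, and no difference between phases was called from them.

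**Figure D4:**
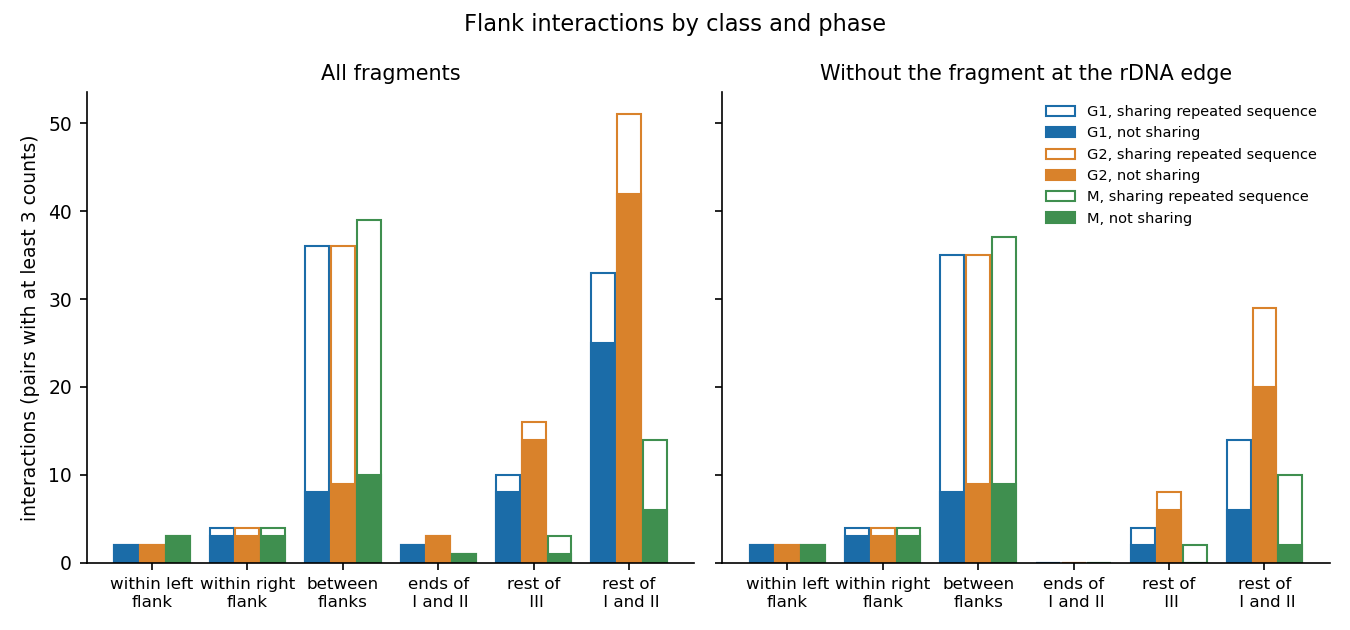
Number of flank interactions in each of the 6 classes of contacts in G1, G2 and M phase, over all fragments and without the rDNA edge fragment. The filled part of a bar shows pairs that do not share repeated sequence. Over all fragments, between-flank interactions number 36, 36 and 39 and interactions with the arms of chromosomes I and II 33, 51 and 14.

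Interactions with the ends of chromosomes I and II involved the rDNA edge fragment in all 4 cases. It was joined to I:1-6472, the fragment with the telomere-linked helicase gene tlh1, by 5, 3 and 3 counts. The fragment I:5565922-5568892 had 1, 3 and 0 counts with it, I:6473-9712 had 3, 0 and 0, and I:5544934-5549017 had 0, 3 and 0. No other flank fragment was joined to an end of chromosome I or II by more than 2 counts.

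Added over fragments, however, the ends received more counts per length than the arms. With the rDNA edge fragment and all pairs sharing repeated sequence left out, the 4 ends received 53.7 (44.1 to 64.9), 49.3 (40.0 to 60.0) and 40.8 (32.5 to 50.6) counts per 100 kb. The rest of chromosomes I and II received 10.1, 9.26 and 9.33, and the rest of chromosome III 12.2, 12.5 and 13.3. Of the 158 end fragments 33.5%, 32.9% and 31.6% had at least 1 count from the flanks, beside 10.8%, 9.04% and 9.91% of the 7541 arm fragments. The left end of chromosome I had the most counts, 47, 40 and 29. Its right end had 25, 18 and 20, the left end of chromosome II 24, 24 and 21 and the right end of chromosome II 12, 17 and 12.

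The difference between ends and arms lay mainly with partners that hold repeated sequence themselves. Repeated sequence of the centromeres is counted with the arms. End fragments with repeated sequence received 75.8 (61.6 to 92.3), 71.9 (58.1 to 88.0) and 52.8 (41.1 to 66.8) counts per 100 kb, beside 24.6, 24.2 and 23.9 on the arms. Repeat-free end fragments received 12.8 (5.85 to 24.3), 7.11 (2.31 to 16.6) and 18.5 (9.84 to 31.6), beside 8.81, 7.91 and 8.013 (7.44 to 8.62). Only in M phase did the interval of the repeat-free ends lie above that of the arms, and it rests on 13 counts. The rest of chromosome III, used as a comparison, gave ratios of ends to arms of 2.90, 2.20 and 2.41 for repeated partners, where the flanks gave 3.08, 2.97 and 2.21. For repeat-free partners it gave 1.57, 1.59 and 3.83, where the flanks gave 1.45, 0.899 and 2.31. The flanks thus lay above the rest of chromosome III in G1 and G2 phase for repeated partners and below it in the other 4 cases, and no test of the difference was made.

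**Figure D5:**
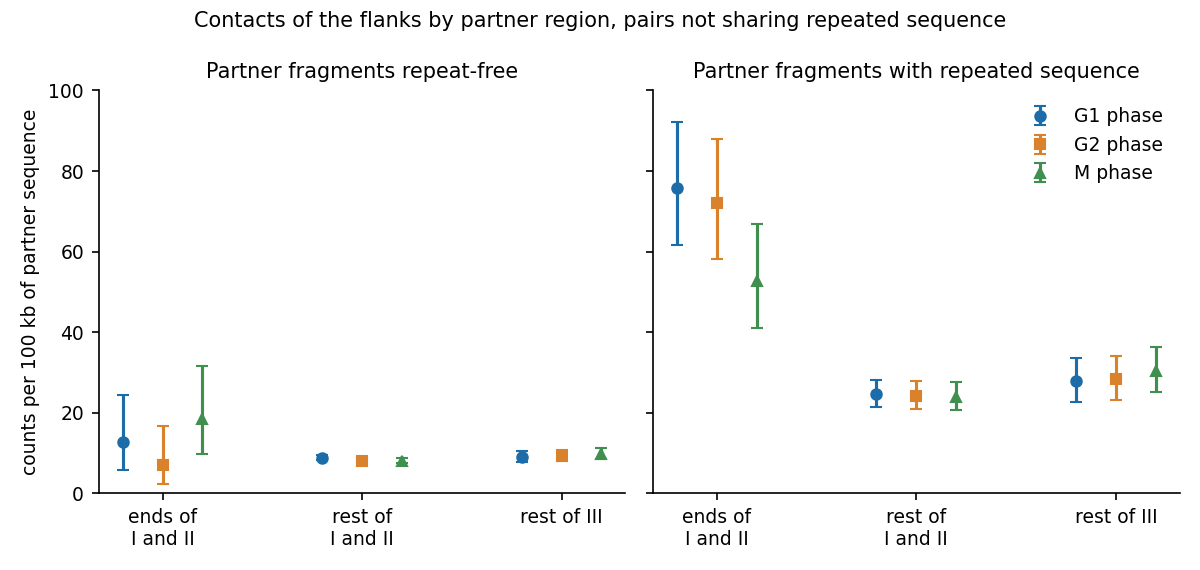
Counts per 100 kb of partner sequence, with exact Poisson 95% intervals, from the flanks (without the rDNA edge fragment and without pairs that share repeated sequence) to the ends and arms of chromosomes I and II and the rest of chromosome III, for repeat-free partners and partners with repeated sequence in each phase. End fragments with repeated sequence received 75.8, 71.9 and 52.8 counts per 100 kb and repeat-free end fragments 12.8, 7.11 and 18.5.

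The strongest contacts with the arms joined copies of the same sequence. The chromosome II fragment II:1032588-1034366, which holds SPBC337.02c and the non-coding RNA prl42, was joined to SPCP20C8.01c by 2441, 2982 and 2536 counts. It was joined to SPCC569.01c by 2310, 2831 and 2367 counts and to SPCC569.03 by 348, 389 and 362. With SPCP20C8.03, with which it shares no repeated sequence by the same measure, it had 3, 4 and 3 counts. The SPCP20C8.01c and SPCC569.01c fragments share an identical run of 991 bp, and each shares a run of 258 bp with the fragment on chromosome II. A stretch of it, the same letter for letter in all 3, is shown from III:28713-28792 (plus strand), III:2435322-2435401 (minus strand) and II:1033118-1033197 (plus strand).

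SPCP20C8.01c fragment: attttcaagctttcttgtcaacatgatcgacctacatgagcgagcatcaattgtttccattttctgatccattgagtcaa
SPCC569.01c fragment: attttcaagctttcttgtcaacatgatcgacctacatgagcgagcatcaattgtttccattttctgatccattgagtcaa
SPBC337.02c fragment: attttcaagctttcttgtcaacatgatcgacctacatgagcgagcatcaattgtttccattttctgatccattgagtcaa

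On chromosome I the fragment I:5142097-5147200, with aif1, snoR56 and lrs1, was joined to SPCC569.03 by 83, 89 and 126 counts and to SPCP20C8.03 by 53, 44 and 61.

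A transfer RNA gene inside the left flank gave a second group of such contacts. The fragment III:70442-71500 carries SPCTRNAHIS.03, a gene for the histidine tRNA at III:71400-71471 on the plus strand, shown with the anticodon loop in capitals.

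SPCTRNAHIS.03: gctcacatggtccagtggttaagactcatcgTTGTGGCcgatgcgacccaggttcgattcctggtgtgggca

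The other tRNA-His genes SPCTRNAHIS.04, SPBTRNAHIS.01 and SPBTRNAHIS.02 have the same sequence with 0 mismatches. The fragment was joined to III:1844149-1845507 (SPCTRNAHIS.04) by 91, 96 and 87 counts, to II:958610-964101 (SPBTRNAHIS.02) by 76, 51 and 54 and to II:464150-464512 (SPBTRNAHIS.01) by 42, 45 and 32. Each of the 3 identical genes elsewhere was thus joined to the flank in every phase. The next fragment inward, III:71501-72598, was joined to SPCTRNAHIS.04 by 4, 5 and 3 counts, a pair that shares repeated sequence only through its neighbour.

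Contacts beyond the flanks that do not rest on a copy were few and low. Pairs of 2 repeat-free fragments were few throughout the data, 7293 of the 96638 nuclear pairs chosen in the same way. In the flanks they were 191 of 6784 pairs, so their small number is not read as a trait of the flanks. Among pairs of 2 repeat-free fragments, 11, 23 and 4 of 191 were interactions, or 5.76% (3.25 to 10.02), 12.0% (8.16 to 17.4) and 2.09% (0.817 to 5.26), beside a background of 1.56%, 10.6% and 1.17%. Of these, 4, 5 and 3 were between-flank interactions with a common 25 bp stretch, and not contacts with the arms. Outside the flanks there were 20 such interactions, none with a common 25 bp stretch, and 18 flank fragments took part in them. They numbered 7, 18 and 1, with 31, 72 and 12 counts. The highest count was 8.

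In 12 of the 20 the contact was seen in 2 pairs of neighbouring fragments, in 6 groups. No such share was worked out over other repeat-free interactions, and the groups were chosen after their values were seen. The recurrence is therefore not read as particular to the flanks. On chromosome III the fragment of the checkpoint kinase gene chk1 and of meu27 (III:1061773-1063429) was joined to III:2354483-2355484, at the lifespan gene ecl1, by 3, 8 and 1 counts and to the next fragment, III:2355485-2360699, by 3, 7 and 0. The adh1 fragment III:1589331-1594805, which encodes an alcohol dehydrogenase, had 1, 3 and 1 and 1, 3 and 0 counts with III:2382431-2384422 and III:2384423-2384605 at vms1. On chromosome I, I:2442651-2443948, with the translation initiation factor gene tif212, had 2, 6 and 2 counts with III:55803-55937 at SPCC757.06 and 1, 4 and 0 with its neighbour III:55938-55988. Also on chromosome I, the glycerol-3-phosphate dehydrogenase gene gpd2 (I:4333933-4337587) had 0, 4 and 1 counts with III:2395629-2398456 at pal1 and 0, 3 and 1 with III:2393050-2395628 at ppk38. On chromosome II, II:4222843-4224489 and II:4224490-4225580, at SPBC16G5.06 and SPBC16G5.07c, had 3, 6 and 0 and 4, 4 and 1 counts with III:93223-95036, which holds the tRNA splicing gene sen54. The SPBC1A4.04 fragment II:1982099-1984349 had 3, 3 and 0 counts with each of III:2395629-2398456 and III:2398466-2398515, at the sterol acyltransferase gene are2. These pairs were selected by reaching 3 counts in at least 1 phase, which was met in G2 phase by 18 of the 20, so no order of the phases is read from them.

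The rDNA edge fragment had its own arm contacts, of the same low order. With the fragment of the microtubule-associated protein gene dis1 and the eisosome gene pil1 (III:343102-351409) it had 0, 5 and 2 counts.

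Partners outside the flanks were grouped by their annotation, with the contacts of the rDNA edge fragment included. Fragments with an LTR received 175, 175 and 151 counts, fragments with a Tf2 retrotransposon 30, 28 and 31, fragments with a wtf gene, a family of meiotic drivers, 19, 31 and 44, and fragments with a 5S rRNA gene 20, 19 and 13. Fragments with a tRNA gene received 222, 222 and 181 counts, of which 80, 75 and 55 were in pairs that do not share repeated sequence. Fragments with a pseudogene received 5156, 6246 and 5316 counts, of which 57, 44 and 51 were in such pairs, so most came from the copy on chromosome II. Fragments with none of these received 2854, 2795 and 2171. Of the fragments outside the flanks and the rDNA, 2.71% had an LTR, 0.343% a Tf2, 0.644% a wtf gene and 0.483% a 5S rRNA gene. A tRNA gene was on 1.45%, a pseudogene on 0.858% and none of these on 94.1%.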

How the data were processed

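The GCC libraries were 2 biological replicates of each of 3 phases, 6 in all. Per the study's methods, paired 50 bp ends were placed with the Topography suite on the genome (build ASM294v2 per the submitters' processing notes) and on plasmid, bacterial and phage control sequences without mismatches. The authors deposited, per joined AseI fragments, counts of read pairs, summed over both replicates of a phase, neither normalized nor filtered by a cut-off. The number of per-sample columns left unused was 0. No column marks uniquely placed pairs, so ends on repeated sequence are included.

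Pairs listed in both directions were used once. Mitochondrial, plasmid, adjacent, rDNA and LTR-LTR pairs were left out. Coordinates are those of the tables. All 124 flank fragments and 9462 of 9464 nuclear fragments were matched by their AseI ends to the RefSeq genome (ASM294v3), and chromosome III matched without a shift. Gene symbols were looked up by locus tag in the RefSeq gene table. Repeats were found as shared 50 bp stretches on either strand, with 25 bp as a stricter form, and inverted copies with BLAST+ 2.17.0 (at least 90% identity and 300 bp). Fisher's exact tests were run over 6 classes and 3 pairs of phases with Benjamini-Hochberg adjustment. A count of 0 allows up to 3 counts. The scripts were tested on simulated data (Python 3.11.15, numpy 2.4.6, scipy 1.17.1, matplotlib 3.10.9).

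Named pairs were the 3 with the most counts in a class, over all pairs and over those sharing no repeated sequence, the 5 fragments with the most counts in each flank and all 4-fold calls. The repeat-free contacts seen in neighbouring pairs, the M phase contacts over 5 kb and the junction placements were chosen after their values were seen. The flanks, classes and lists were chosen with earlier results of these data known. Alternatives covered the cut-off, repeats, LTR pairs, depth, the length of the ends, the count floor and the rDNA edge fragment.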

Additional observations from a re-analysis of the deposited data

Results flagged for a closer look

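Some data of the flanks lie outside the contacts described above and still exceed the 3 counts that a count of 0 allows. Adjacent fragments with an end in a flank were joined by 1229, 2009 and 986 counts. Flank fragments were joined to mitochondrial DNA by 149, 179 and 198 counts, and these contacts join DNA of separate compartments. Pairs with an LTR at both ends, left out above, held 12926, 13942 and 15362 counts. The largest of these are mirrored pairs too: III:25396-27096 with III:2437016-2438716 had 5354, 6300 and 5887 counts, SPCP20C8.03 (III:31617-35035) with SPCC569.03 (III:2428831-2432497) 3946, 4029 and 4587, and the fragment of meu3 and the nickel transporter gene nic1 (III:42485-44637) with meu19 (III:2417895-2419289) 1954, 2500 and 2173.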

How the results depend on the processing

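No paired analysis was possible because the replicates of each phase are pooled in the tables, and for the same reason no replicate could be left out in turn. The number of interactions in G1, G2 and M phase (87, 112 and 64) became 264, 341 and 181 at 2 counts, 48, 55 and 42 at 5 counts, 48, 73 and 24 without pairs that share repeated sequence, 11, 23 and 4 over repeat-free pairs, and 165, 177 and 145 with LTR-LTR pairs kept. Chosen after seeing the data, leaving out pairs with a common 25 bp stretch gave 43, 67 and 20, and leaving out pairs that share sequence within 2 fragments gave 38, 63 and 12. With the totals of the 3 tables set equal they were 87, 105 and 64, which does not equalise the counts outside shared repeats.

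Of the 18 comparisons of shares by Fisher's exact test, 2 had an adjusted p under 0.05, with pairs taken as independent. This became 4 at 2 counts, 1 weighted by counts, 1 with any LTR left out, and 0 at 5 counts, without sharing pairs, over repeat-free pairs, with LTR-LTR pairs kept, and under each alternative chosen after seeing the data (without the rDNA edge fragment, with 25 bp, within 2 fragments, and without both the edge fragment and sharing pairs). The between-flank share in M minus G2 phase, 28.8 percentage points, kept its direction, with an adjusted p above the threshold, at 5 counts (12.0), without sharing pairs (29.3), over repeat-free pairs (53.3), weighted by counts (0.498), with LTR-LTR pairs kept (6.93), without the edge fragment (22.4), with 25 bp (25.5), within 2 fragments (25.4) and without the edge fragment and sharing pairs (33.8). The share with the arms of chromosomes I and II, -23.7 points, did so at -3.33, -32.5, -35.9, -0.287, -6.53, -19.0, -32.7, -23.4 and -37.5 points in the same order, and at -25 points (adjusted p = 0.0896, Fisher's exact test) with any LTR left out. The size of the 2 differences was not stable. Weighted by counts they were 0.498 and -0.287 points, which is close to no difference. With LTR-LTR pairs kept, where more interactions entered, they were 6.93 and -6.53 points. The cause was not tested. With a floor of 1 count the 2 calls of 4-fold became 27, and without pairs that share 25 bp 0. Ends of 100 kb, medians per fragment and window ranks kept their values within the limits set. Depth limits all pairs of a few counts: the 3 counts that a count of 0 allows equal the cut-off.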
